A study of Arabidopsis thaliana with 26 samples.

Results

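The 26 rows described here were the probe sets of the deposited table whose level was low after 1 day of darkening in both genotypes and back near the light level after 6 days. They were chosen by their measured values from the 26676 rows of the table. With C for the mean log2 change from leaves in light in Col-0 and P for the same in pif5, a row was kept when C and P at day 1 were both at or below -0.8 (a level at least 1.74-fold lower) and C and P at day 6 were both between -0.5 and 0.5 (less than 1.41-fold from the light level). The rule allowed up to 200 rows, and 26 met it. The day 1 and day 6 changes are therefore a description of the choice, whereas the arrays of day 3 and day 12 took no part in it.

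The study followed leaves of Arabidopsis thaliana on 26 single-colour arrays. One genotype was the wild type Col-0 and the other a PIF5 knockout, named pif5-621 in the design text and pif5 here. Plants of both genotypes grew in short days of 8 h light, and single expanded leaves were enclosed in foil-coated covers while the rosette kept its light and dark cycle. Leaf blades were taken at noon, from leaves in light (day 0) and at days 1, 3 and 6 of darkening in both genotypes, with 3 arrays in each of these 8 groups, and after 12 days in pif5 with 2 arrays. Each genotype had a single group of leaves in light, so the age of the leaf and the time in darkness cannot be told apart. Whether replicates were separate plants is not stated in the labels, so the spread behind each p-value is that between these samples and may be technical.

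A leaf darkened alone on a plant in light loses photosynthesis at once and, in wild-type Arabidopsis, goes on to yellow and recycle its proteins and chloroplasts over the following days. PIF5 belongs to the phytochrome-interacting basic helix-loop-helix transcription factors, which accumulate in the dark and are degraded after phytochrome activation by light. Plants without PIF5 are known to stay green longer when leaves are darkened.

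The rows are cited by their identifier in the table, without gene names. In the platform annotation 14 of the 26 rows (53.8%) carry 1 gene and the other 12 carry none, against 60.6% and 37.1% of all rows. The values did not bear out these names in the check made. Cytosolic ribosomal protein genes are strongly expressed together in leaves. Rows for them were found by annotated locus, from a list of loci written from general knowledge that was not itself tested. The median level of these 129 rows was at the 54.0th percentile of all rows. Their mean pairwise correlation over the arrays was 0.0025, against 0.0072 for all 16179 rows listed with 1 gene. For the same reason the level of PIF5 and the markers of leaf cell types were not analysed here, and the genotype and tissue labels are taken as given. A bulk leaf sample also cannot tell less RNA per cell from fewer cells of a type.

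Array medians lay between 4.20 and 4.33 on the log2 scale, and replicate arrays of a group correlated at 0.981 to 0.991. When each array was correlated with the group means (its own group without it), 21 of 26 arrays were nearest to their own group. The 5 exceptions were pif5 array 2 and Col-0 arrays 1 and 3 of leaves in light, which lay closest to leaves in light of the other genotype, and both pif5 day 12 arrays, which were nearest to pif5 day 6.

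A return by day 6 was rare among rows with an early fall. The day 1 limit was met by 2530 rows in Col-0, by 2405 in pif5 and by 2030 in both. Of these 2030 rows, 100 lay within 0.5 of the light level at day 6 in Col-0, 196 did so in pif5, and 26 (1.28%) did so in both. The last rows inside the day 1 limit were 13539683 and 13516710, whose smaller fall of the 2 genotypes was -0.81 in each. The first rows outside it were 13536955 at -0.79 and 13501208 at -0.78. At the day 6 limit, 13431459 (0.498 from the light level) and 13406413 (0.494) were just inside, and 13354520 (0.501) and 13491634 (0.507) just outside. The limits thus cut through a continuous range of values, and the set depended on the scale of the arrays: after quantile normalization 25 rows met the rule, of which 14 were among the 26, and after centring each array on its median 31 did, of which 22 were.

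All 26 rows had a mean level above the 25th percentile of the table, so none was left out by a filter on low values at that percentile. In light the genotypes lay close together in the median row, but single rows differed by as much as many did at day 3. The mean log2 level of pif5 minus that of Col-0 at day 0 ranged from -0.46 to 0.29 with a median of -0.08, above 0 in 7 rows and below 0 in 19. At day 3 the same difference ranged from -0.38 to 0.52.

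In the median row most of the early fall was still present at day 3 in both genotypes, with a lower median in Col-0 than in pif5. The median change of the 26 rows from the light level in Col-0 was -1.04 at day 1, -0.83 at day 3 and -0.26 at day 6 on the log2 scale. In pif5 it was -0.96 at day 1, -0.58 at day 3, -0.04 at day 6 and 0.10 at day 12. The label of a fall transient at day 1 thus describes the end points, while in Col-0 the low level lasted to day 3 in most rows. The day 3 and day 12 changes share the day 0 arrays with the rule and are given without a test.

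**Figure D1:**
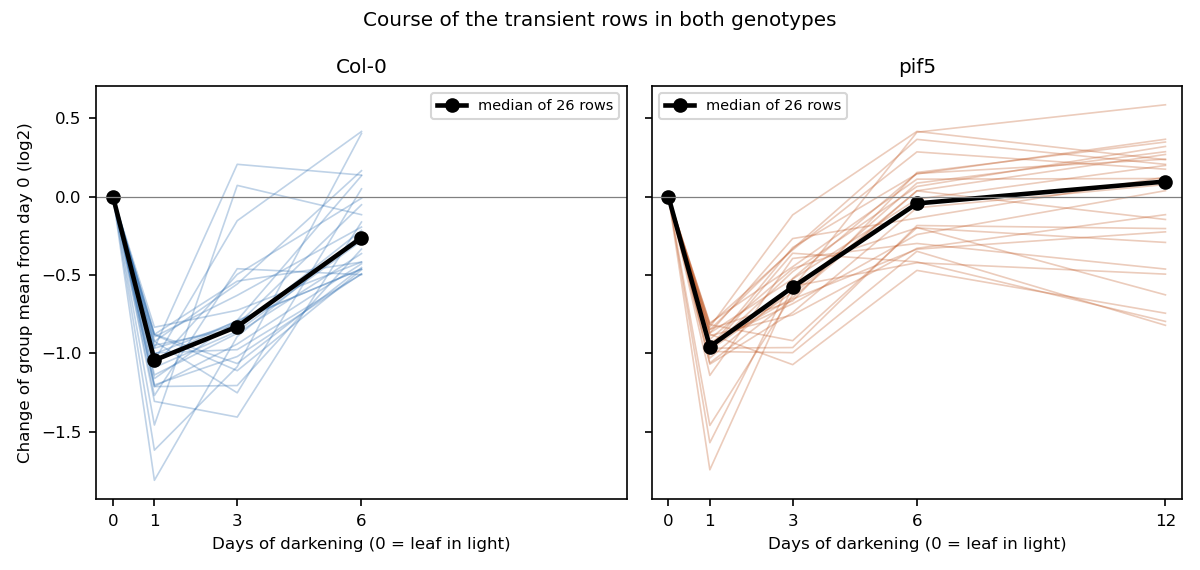
Change of the group mean from day 0 on the log2 scale (vertical axis) against days of darkening (horizontal axis) for the 26 rows, in Col-0 on the left and pif5 on the right; thin lines are single rows and the black line is their median. The day 3 median was -0.83 for Col-0 against -0.58 for pif5. The days 1 and 6 were fixed by the choice of rows.

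The single arrays gave the same picture as the group means. The median change over the 26 rows in the Col-0 arrays was -1.01, -1.07 and -1.00 on day 1, -0.81, -0.88 and -0.85 on day 3, and -0.25, -0.32 and -0.21 on day 6. Across the pif5 arrays it was -0.97, -0.93 and -0.98 on day 1, -0.49, -0.49 and -0.66 on day 3, 0.05, -0.06 and -0.11 on day 6, and 0.15 and 0.04 on day 12. At day 3 the medians of the pif5 arrays were all above those of the Col-0 arrays. The median over all 26676 rows stayed between -0.04 and 0.05 in each of the 26 arrays.

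**Figure D2:**
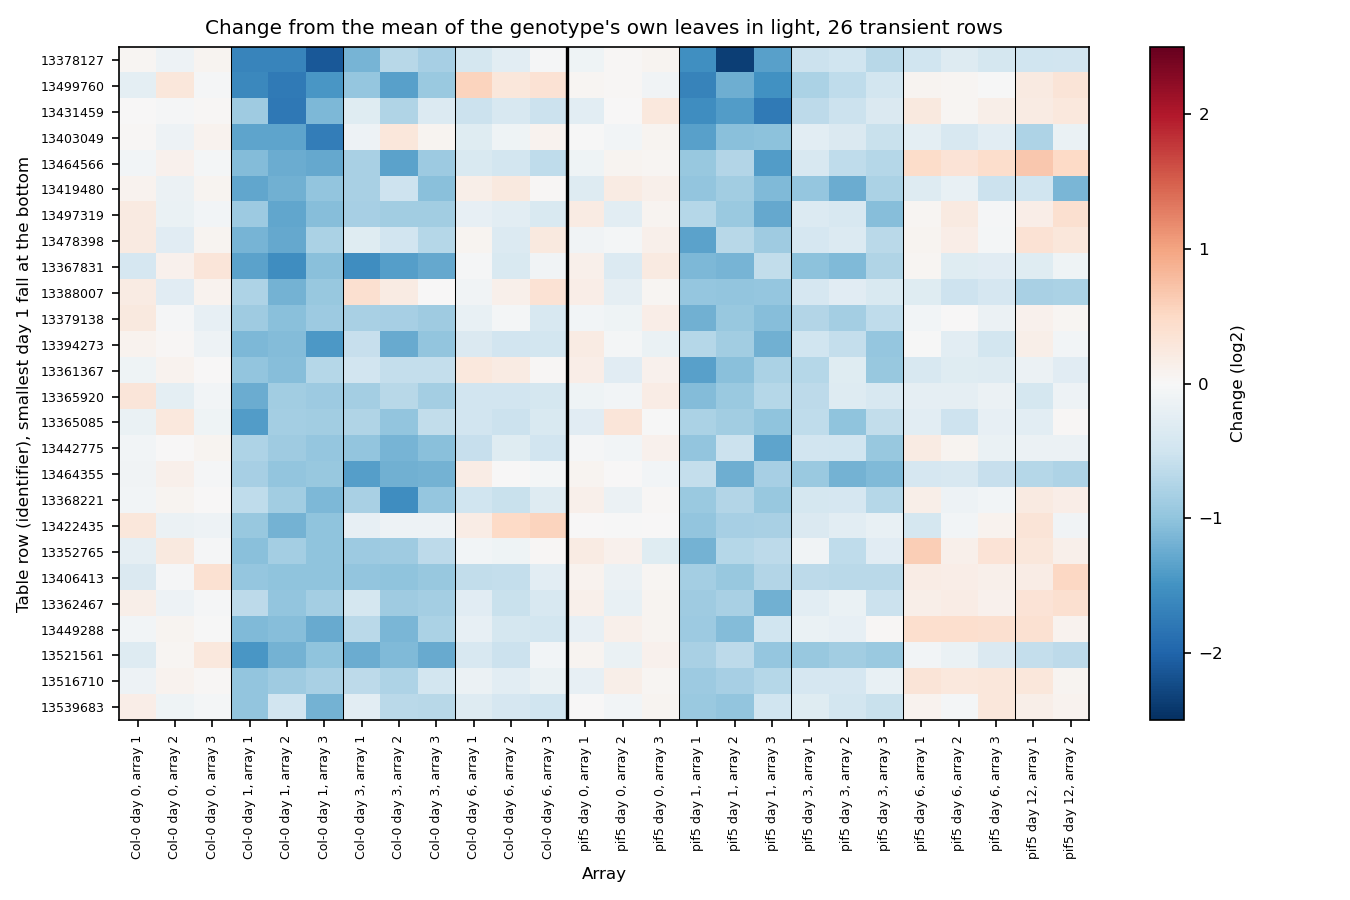
Change of each array from the mean of its genotype's leaves in light (colour, log2) for the 26 rows (vertical axis, ordered by the smaller day 1 fall) in all 26 arrays (horizontal axis, grouped by genotype and day). Blue stands for lower levels, and the Col-0 day 3 columns are blue in all 3 arrays of every row but 13403049 and 13388007.

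At day 3, 14 of the 26 rows were still at or below -0.8 in Col-0, 7 lay between -0.8 and -0.5, and 5 (19.2%) were within 0.5 of the light level. In pif5 4 rows were still at or below -0.8, 12 lay between, and 10 (38.5%) were within 0.5. Of the 26 rows 4 were within 0.5 in both genotypes, 6 in pif5 alone, 1 in Col-0 alone and 15 in neither. The day 3 change was higher (less negative or more positive) in pif5 than in Col-0 in 20 of the 26 rows. It was so in 1430 of the other 2004 rows with an early fall in both genotypes, and in 12157 of all 26676 rows. At day 1 the change was likewise higher in pif5 in 20 of the 26 rows. Among the other 2004 rows with an early fall in both genotypes, 1.55% were within 0.5 at day 3 in Col-0 and 3.04% in pif5, and their median changes were -1.69 and -1.43. These rows had not met the day 6 conditions of the choice. They also had deeper falls from the start, with day 1 medians of -1.42 in Col-0 and -1.37 in pif5.

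**Figure D3:**
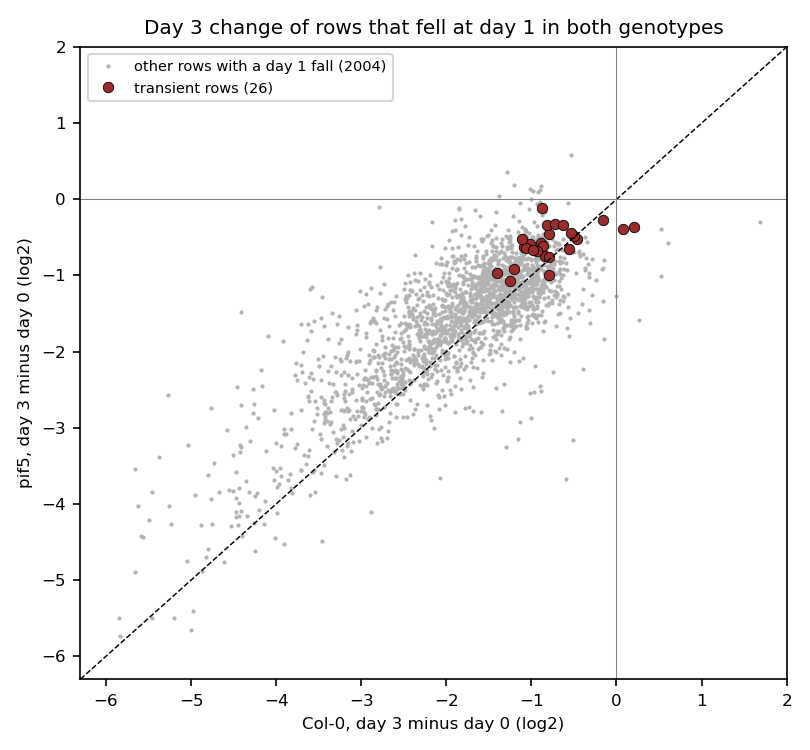
Change from day 0 to day 3 in pif5 (vertical axis) against the same change in Col-0 (horizontal axis), both log2, for the 26 rows (red) and the other 2004 rows with a day 1 fall in both genotypes (grey); the dashed line marks equal change. Of the 26 rows 20 lie above the line, and of the other 2004 rows 1430 do. The lowest of the 26 rows on either axis is at -1.41.

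The share of the day 1 fall that remained at day 3 varied widely among the 26 rows. In Col-0 the day 3 change was 77.1% of the day 1 change in the median row, with a range from -21.4% (a level above that in light) to 136%. In pif5 it was 56.0% in the median row, with a range from 14.0% to 122%. At day 3 all arrays still lay below the mean light level in 24 rows in Col-0 and in 25 rows in pif5.

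The 5 rows with the deepest falls came back at different times. Row 13378127 had the deepest fall of the set. Its log2 levels in Col-0 were 7.49, 7.33 and 7.53 in light, 5.80, 5.80 and 5.33 on day 1, 6.29, 6.76 and 6.62 on day 3, and 7.02, 7.19 and 7.42 on day 6. In pif5 they were 7.19, 7.33 and 7.36 in light, 5.77, 4.95 and 5.93 on day 1, 6.75, 6.80 and 6.61 on day 3, 6.79, 6.97 and 6.84 on day 6, and 6.78 and 6.81 on day 12. In both genotypes the day 3 arrays lay above the day 1 arrays and below those in light, and in pif5 the level at days 6 and 12 was still below all arrays in light. The day 3 arrays of the genotypes overlapped.

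Row 13499760 also had a day 3 level between those of day 1 and light. Its Col-0 arrays read 7.10, 7.61 and 7.30 in light, 5.72, 5.57 and 5.88 on day 1, 6.37, 5.98 and 6.41 on day 3, and 7.90, 7.62 and 7.71 on day 6. The pif5 arrays read 7.27, 7.25 and 7.14 in light, 5.56, 6.01 and 5.71 on day 1, 6.43, 6.59 and 6.77 on day 3, 7.29, 7.26 and 7.22 on day 6, and 7.43 and 7.54 on day 12. Its 3 day 6 arrays in Col-0 were above all its arrays in light. At day 3 the lowest pif5 array lay just above the highest Col-0 array, and the difference of 0.34 had a 95% interval from 0.05 to 0.63 (limma, adjusted p = 0.098).

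Row 13431459 lay at a similar distance below its light level in both genotypes at day 3. The Col-0 arrays held 6.36, 6.33 and 6.38 in light, 5.47, 4.57 and 5.23 on day 1, 6.06, 5.61 and 6.02 on day 3, and 5.82, 5.95 and 5.81 on day 6. The pif5 arrays held 6.06, 6.33 and 6.60 in light, 4.78, 4.94 and 4.57 on day 1, 5.67, 5.79 and 5.97 on day 3, 6.58, 6.38 and 6.48 on day 6, and 6.54 and 6.60 on day 12. In Col-0 the mean changed little from day 3 (-0.46) to day 6 (-0.50), whereas the pif5 mean was -0.52 at day 3 and 0.15 at day 6.

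Row 13403049 had the level of leaves in light again at day 3 in Col-0. Its Col-0 arrays were at 9.33, 9.17 and 9.38 in light, 7.97, 7.97 and 7.57 on day 1, 9.16, 9.58 and 9.35 on day 3, and 8.98, 9.18 and 9.37 on day 6. Its pif5 arrays were at 9.41, 9.35 and 9.49 in light, 8.06, 8.36 and 8.40 on day 1, 9.15, 9.05 and 8.85 on day 3, 9.17, 9.02 and 9.16 on day 6, and 8.65 and 9.26 on day 12. The Col-0 day 3 arrays straddled the light level, and all 3 lay above the pif5 day 3 arrays. The lowest Col-0 array (9.156) and the highest pif5 array (9.153) were nearly equal. The difference of -0.34 (95% interval -0.65 to -0.04) did not pass the threshold (limma, adjusted p = 0.12).

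Row 13464566 went the other way, with most of its fall still present in Col-0 at day 3. The Col-0 arrays measured 8.23, 8.40 and 8.25 in light, 7.21, 7.05 and 7.02 on day 1, 7.48, 6.96 and 7.39 on day 3, and 7.92, 7.83 and 7.66 on day 6. The pif5 arrays measured 8.09, 8.28 and 8.26 in light, 7.25, 7.48 and 6.81 on day 1, 7.81, 7.58 and 7.50 on day 3, 8.68, 8.55 and 8.64 on day 6, and 8.89 and 8.70 on day 12. Both the day 6 and the day 12 arrays of pif5 lay above all its arrays in light, while the day 6 arrays of Col-0 lay below theirs. At day 3 all pif5 arrays were above all Col-0 arrays, by 0.35 in the mean (95% interval 0.06 to 0.65, limma adjusted p = 0.094).

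At day 3 the genotypes were compared directly, pif5 minus Col-0, on arrays that the choice of rows had not used. Of the 26 rows, 3 were higher in pif5 past an adjusted p of 0.05 (11.5%), and 0 were lower (limma over all 9 groups, Benjamini-Hochberg over all rows). Of all 26676 rows 18.3% were called in this comparison, 8.53% higher and 9.8% lower in pif5. The share of the 26 rows that was called was thus not above that of the table. Among the other 2004 early falls 820 rows (40.9%) were called, 33.6% higher and 7.34% lower. At an unadjusted p below 0.05, 13 of the 26 rows (50%) passed, against 28.2% of all rows and 53.7% of the other early falls.

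The difference at day 3 ranged from -0.38 to 0.52 over the 26 rows, with a median of 0.21, above 0 in 17 rows and below 0 in 9. The median was -0.02 over all rows and 0.24 over the other early falls. The 95% interval of a single row reached 0.23 to 0.37 to either side of its value, so differences of the size of the median could not be resolved in one row. The replicate SD at day 3 had a median of 0.19 in Col-0 and 0.16 in pif5 over the 26 rows, against 0.15 in each over all rows. The arrays of the genotypes did not overlap in 13 of the 26 rows (50%), in 9 with pif5 above and in 4 with Col-0 above. Of all rows 30.1% had arrays that did not overlap, and over the other early falls 50.8%.

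**Figure D4:**
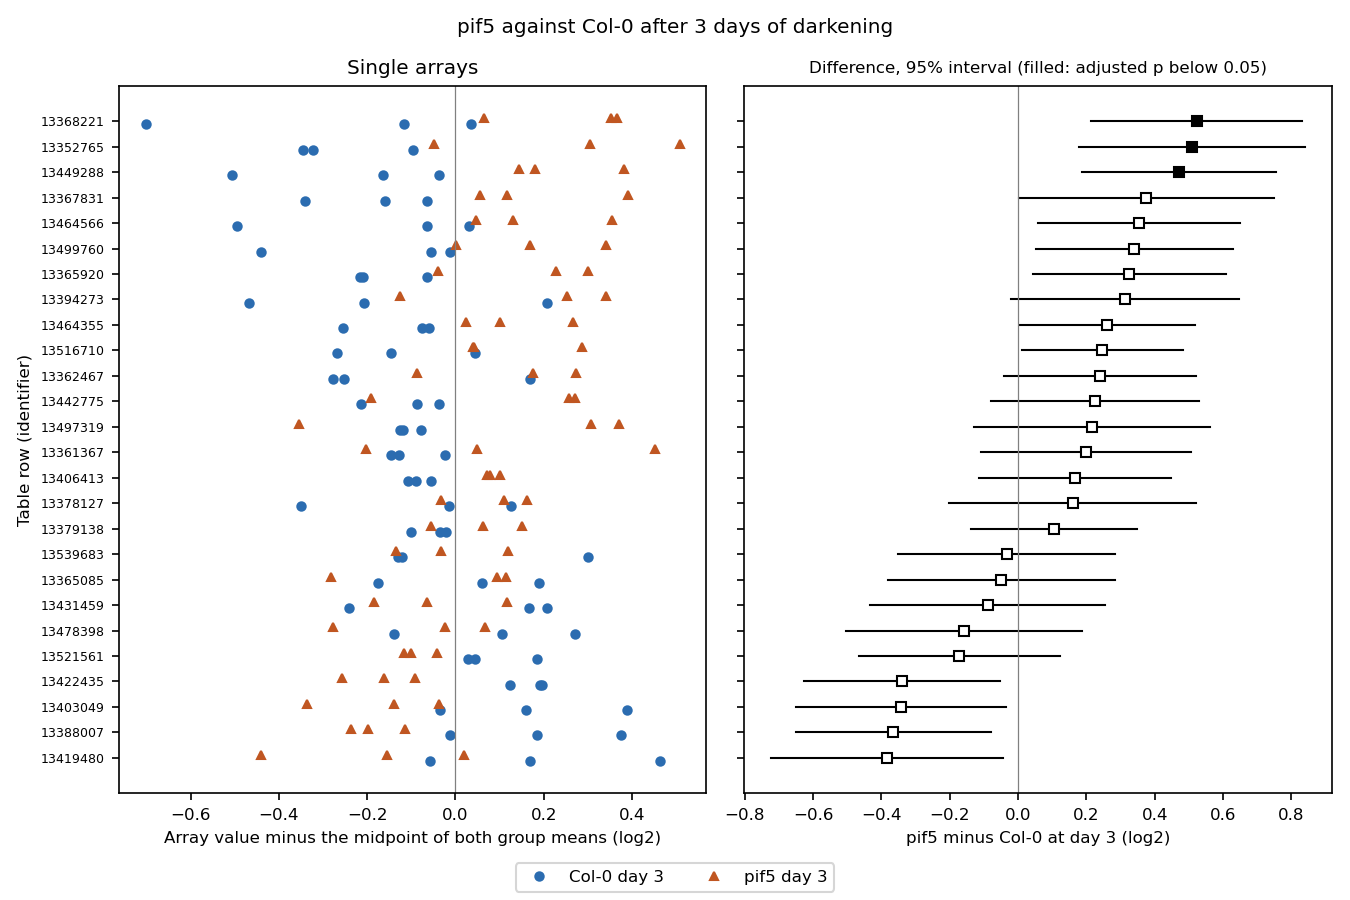
Left, single day 3 arrays of Col-0 (blue circles) and pif5 (orange triangles) for each of the 26 rows, as log2 value minus the midpoint of both group means; right, the difference pif5 minus Col-0 with its 95% interval, filled where the adjusted p was below 0.05. The 3 filled rows at the top have differences of 0.47 to 0.52, and the 4 rows at the bottom have differences of -0.34 to -0.38 that did not pass.

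Row 13368221 had the largest difference at day 3 when all arrays were used. The pif5 arrays measured 5.70, 5.72 and 5.42 and the Col-0 arrays 5.39, 4.65 and 5.24 on the log2 scale. All pif5 arrays were above all Col-0 arrays, although the highest Col-0 array came close to the lowest pif5 array. The difference was 0.52 ± 0.15 (SE, n = 3 per group), or 1.44-fold, with a 95% interval from 0.21 to 0.83 (limma adjusted p = 0.013). Without Col-0 day 3 array 2 it was 0.30, below that of row 13352765 (0.48), and in a fit over the 2 compared groups alone it did not pass the threshold (limma adjusted p = 0.059). In Col-0 the day 3 mean of this row (-1.11 from light) was below its day 1 mean (-0.88), while in pif5 it was -0.53 at day 3 and -0.87 at day 1.

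Row 13352765 was similar in size. Its pif5 arrays stood at 6.24, 5.68 and 6.04 and its Col-0 arrays at 5.38, 5.41 and 5.63. The groups did not overlap, with pif5 array 2 close to Col-0 array 3. The difference was 0.51 ± 0.16 (SE, n = 3 per group), or 1.42-fold, with a 95% interval from 0.18 to 0.84 (limma adjusted p = 0.026). It did not pass the threshold without pif5 day 3 array 1 (limma adjusted p = 0.17) or array 3 (limma adjusted p = 0.072). Nor did it pass without Col-0 day 3 array 1 (limma adjusted p = 0.094) or array 2 (limma adjusted p = 0.086). It passed without pif5 day 3 array 2 or Col-0 day 3 array 3. From light, Col-0 had changed by -0.82 and pif5 by -0.33.

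Row 13449288 was closest to its light level in pif5 at day 3. The pif5 arrays showed 5.69, 5.66 and 5.89 and the Col-0 arrays 5.48, 5.01 and 5.35. All pif5 arrays were above all Col-0 arrays. The difference was 0.47 ± 0.14 (SE, n = 3 per group), or 1.39-fold, with a 95% interval from 0.19 to 0.76 (limma adjusted p = 0.016). It did not pass without pif5 day 3 array 3 (limma adjusted p = 0.079) or Col-0 day 3 array 2 (limma adjusted p = 0.14). It passed with any other day 3 array left out. The mean change from light was -0.12 in pif5 and -0.87 in Col-0.

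The count of 3 rested on single arrays. With all arrays 4889 of all rows were called. Without Col-0 day 3 array 2, in which 13368221 and 13449288 had their lowest values, 0 of the 26 rows were called. Of all rows 3877 were called then. Without pif5 day 3 array 1 or array 3, 1 was called, with 3657 and 4644 of all rows. After quantile normalization, 5 of the same 26 rows were called, all higher in pif5, with 4876 of all rows. With each array centred on its median, 3 were called higher and 1 lower, with 5009 of all rows.

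Taking the difference between the changes from light in place of the levels at day 3, 1 of the 26 rows was called, against 10.2% of all rows and 24.3% of the other early falls. That row was 13449288, with a difference in change of 0.76 (95% interval 0.35 to 1.16, limma adjusted p = 0.012). At an unadjusted p below 0.05, 8 of the 26 rows (30.8%) passed, against 21.9% of all rows and 42.0% of the other early falls. The difference in change ranged from -0.57 to 0.76 with a median of 0.27, was above 0 in 20 rows, and had the sign of the difference at day 3 in 21. Over the other 2004 early falls its median was 0.25, and it was above 0 in 1430 of them. This measure shares the day 0 arrays with the choice of rows.

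The day 3 difference was smallest in rows 13539683, 13365085 and 13431459. Row 13539683 measured 5.96, 5.81 and 5.71 in pif5 and 6.14, 5.72 and 5.71 in Col-0, a difference of -0.03 (95% interval -0.35 to 0.28). Row 13365085 measured 4.45, 4.07 and 4.47 in pif5 and 4.41, 4.18 and 4.54 in Col-0, a difference of -0.05 (95% interval -0.38 to 0.28). In both rows the arrays of the genotypes were mixed. For 13431459, whose arrays are given above, the difference was -0.09 (95% interval -0.43 to 0.26). The lowest bound among these 3 intervals was -0.43 and the highest 0.28, so a difference anywhere within a row's interval remains possible for it.

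Some further rows are named after their values were seen. The 4 rows with the lowest pif5 values relative to Col-0 at day 3 were 13419480 (-0.38), 13388007 (-0.36), 13403049 (-0.34) and 13422435 (-0.34), with limma adjusted p from 0.070 to 0.12. Of these, 3 had returned to within 0.5 of the light level in Col-0 by day 3, together with 13431459 and 13478398. Row 13419480, the one that had not, read 3.29, 3.00 and 3.46 in pif5 and 3.61, 3.91 and 3.39 in Col-0 on day 3, with 1 pif5 array above the lowest Col-0 array. Row 13388007 went furthest. Its Col-0 arrays read 7.43, 6.95 and 7.32 in light, 6.46, 6.05 and 6.29 on day 1, 7.63, 7.44 and 7.25 on day 3, and 7.15, 7.36 and 7.60 on day 6. Its pif5 arrays read 7.60, 7.21 and 7.49 in light, 6.47, 6.45 and 6.46 on day 1, 7.02, 7.14 and 7.06 on day 3, 7.14, 6.91 and 7.01 on day 6, and 6.63 and 6.65 on day 12. At day 3 all Col-0 arrays were above their mean in light and all pif5 arrays below theirs, and the pif5 day 12 arrays lay below those of day 3.

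Row 13422435 had a Col-0 level at day 3 near that in light. Its Col-0 arrays were 7.36, 6.92 and 6.94 in light, 6.12, 5.89 and 6.07 on day 1, 6.87, 6.94 and 6.95 on day 3, and 7.26, 7.58 and 7.63 on day 6. Its pif5 arrays were 6.86, 6.83 and 6.86 in light, 5.87, 6.02 and 6.05 on day 1, 6.49, 6.59 and 6.66 on day 3, 6.41, 6.78 and 6.94 on day 6, and 7.18 and 6.77 on day 12. The Col-0 arrays lay above the pif5 arrays at day 3. Row 13478398 had changed by -0.50 in Col-0 and -0.48 in pif5 at day 3, and its arrays overlapped between the genotypes.

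In other rows the mean at day 3 was below that at day 1, so that day 1 was not the low point of the means. This held for 4 rows in Col-0, namely 13367831 (-1.31 at day 1 and -1.41 at day 3), 13442775 (-0.88 and -1.06), 13464355 (-0.92 and -1.25) and 13368221. It held for 3 rows in pif5, namely 13419480 (-0.99 at day 1 and -1.00 at day 3), 13464355 (-0.88 and -1.07) and 13521561 (-0.82 and -0.92). The day 1 and day 3 arrays overlapped in 13367831 and 13368221 in Col-0 and in 13419480 and 13521561 in pif5. They did not overlap in 13442775 in Col-0. Row 13464355 was the only one of the 26 in both lists. Its Col-0 arrays held 6.53, 6.75 and 6.60 in light, 5.79, 5.63 and 5.68 on day 1, 5.25, 5.43 and 5.44 on day 3, and 6.81, 6.64 and 6.57 on day 6. Its pif5 arrays held 6.77, 6.71 and 6.63 in light, 6.11, 5.49 and 5.88 on day 1, 5.77, 5.53 and 5.60 on day 3, 6.28, 6.31 and 6.12 on day 6, and 6.00 and 5.93 on day 12. In Col-0 all its day 3 arrays lay below all its day 1 arrays, and at day 6 its arrays were back at the light level. In pif5 the day 1 and day 3 arrays overlapped, and the day 12 level remained below that in light.

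A further 10 rows are given by their range. They were 13497319, 13379138, 13394273, 13361367, 13365920, 13362467, 13406413, 13516710, 13521561 and 13367831. In Col-0 their day 3 changes ran from -1.41 in 13367831 to -0.56 in 13361367. In pif5 they ran from -0.96 in 13367831 to -0.32 in 13362467. In 9 of these 10 rows pif5 was above Col-0 at day 3 in the mean, the exception being 13521561 at -0.17, and no difference among them passed the threshold.

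In pif5 the set could be followed to day 12. Of the 26 rows, 21 (80.8%) lay within 0.5 of the light level at day 12, 4 were lower and 1 was higher. The 4 lower rows were 13419480 (-0.82), 13388007 (-0.80), 13464355 (-0.74) and 13521561 (-0.63), and the higher row was 13464566 (0.59). The mean at day 12 was above that at day 6 in 14 rows and below it in 12. Among the other 2004 early falls, 8.98% were within 0.5 of the light level at day 12, and their median change was -1.39. These other rows had not met the day 6 conditions, and 8.48% of them were within 0.5 in pif5 at day 6. The contrast at day 12 thus largely follows from the choice of rows.

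Day 12 was then compared with day 3 in pif5, on arrays that had not themselves been used to choose the rows. Of the 26 rows, 14 (53.8%) rose past an adjusted p of 0.05 and 0 fell (limma as above). Of all 26676 rows 10.3% were called, 4.58% higher and 5.72% lower at day 12. Among the other early falls 19.8% were called, 14.2% higher and 5.59% lower. At an unadjusted p below 0.05, 21 of the 26 rows (80.8%) passed, against 22.3% of all rows and 35.7% of the other early falls. The difference ranged from -0.44 to 1.17 over the 26 rows with a median of 0.55, against -0.05 over all rows and 0.09 over the other early falls. It was above 0 in 24 rows. The 2 days did not overlap in 22 of the 26 rows (84.6%), in 21 of them with day 12 above, against 36.8% of all rows and 45.7% of the other early falls. The rows had been chosen to be low at day 1 and near the light level at day 6, and both day 12 arrays were nearest to pif5 day 6. A rise from day 3 to day 12 was therefore favoured by the choice, so these shares describe the set and do not test it. With 2 arrays at day 12 the 95% interval of a row reached 0.26 to 0.42 to either side, and without day 12 array 2 the count was 8.

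**Figure D5:**
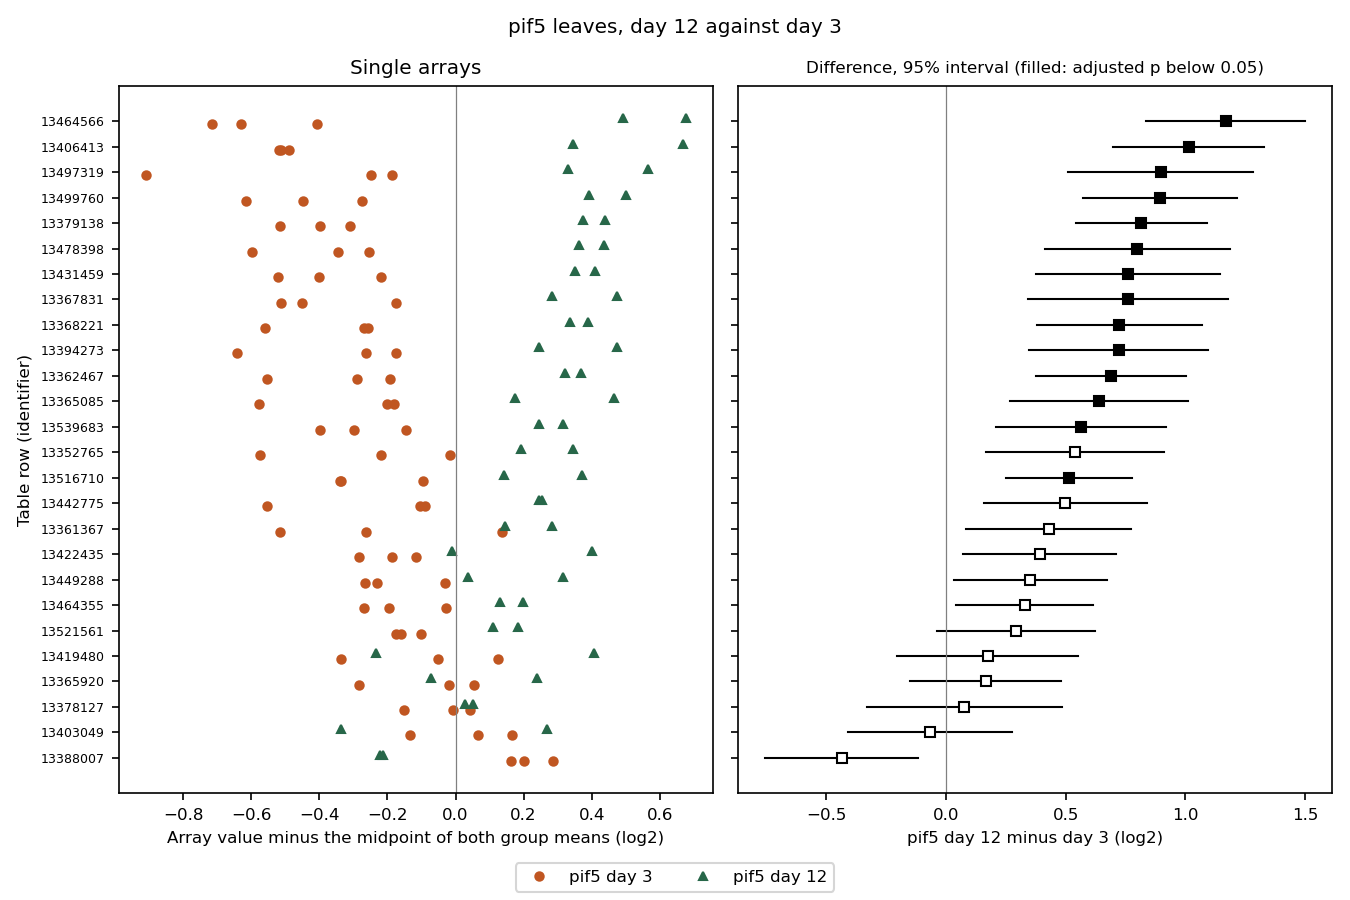
Left, single pif5 arrays of day 3 (orange circles) and day 12 (green triangles) for each of the 26 rows, as log2 value minus the midpoint of both group means; right, the difference day 12 minus day 3 with its 95% interval, filled where the adjusted p was below 0.05. The 14 filled rows all lie above 0, up to 1.17 in row 13464566.

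Row 13464566 rose most between the 2 days. Its arrays were 7.81, 7.58 and 7.50 on day 3, and 8.89 and 8.70 on day 12. Both day 12 arrays lay well above all day 3 arrays. The rise was 1.17 ± 0.16 (SE, n = 3 and 2), or 2.25-fold, with a 95% interval from 0.84 to 1.50 (limma adjusted p = 2.2e-05).

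Row 13406413 had nearly equal arrays at day 3, 6.20, 6.17 and 6.18, and 7.04 and 7.36 on day 12. The groups were apart by far more than the spread at day 3. The rise was 1.01 ± 0.15 (SE, n = 3 and 2), or 2.02-fold, with a 95% interval from 0.70 to 1.33 (limma adjusted p = 5.9e-05). At day 3 this row had not differed between the genotypes past the threshold (0.17, 95% interval -0.11 to 0.45), although its arrays did not overlap.

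Row 13497319 read 7.77, 7.71 and 7.04 on day 3, and 8.29 and 8.52 on day 12. Array 3 of day 3 was well below the other two, and both day 12 arrays were above all of day 3. The rise was 0.90 ± 0.19 (SE, n = 3 and 2), or 1.86-fold, with a 95% interval from 0.51 to 1.28 (limma adjusted p = 0.002).

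Of the 3 rows that were higher in pif5 than in Col-0 at day 3, 13368221 rose further by day 12 (0.72, limma adjusted p = 0.0046). Rows 13352765 (0.54, limma adjusted p = 0.056) and 13449288 (0.35, limma adjusted p = 0.17) did not pass the threshold. The mean at day 12 was below that at day 3 in row 13388007 (-0.44, limma adjusted p = 0.077). Row 13403049 had no settled direction: its difference was -0.07 (limma adjusted p = 0.87), but 0.04 after quantile normalization, 0.02 with arrays centred on their medians and 0.24 without day 12 array 1.

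The 26 rows did not share a single course. Over the 9 group means, 20 of them correlated at 0.8 or more with the median profile of the set, to which each contributes, and the lowest correlation was 0.54 in row 13388007. Outside the set, 4479 rows varied by an SD of at least 0.5 over the group means. The 5 of them most like the median profile were 13479069 (Pearson r = 0.967 over 9 group means), 13407656 (0.966), 13446420 (0.965), 13447661 (0.959) and 13377435 (0.957). The correlation takes no account of size. Their Col-0 changes at day 6 were -0.502, -1.76, -0.55, -0.82 and -0.81, all beyond the day 6 limit. The SD of the 26 rows themselves reached down to 0.37 (13539683), so outside rows of that size were not candidates.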

How the data were processed

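The authors deposited 1 table of log2 expression values for 26676 probe sets on 26 arrays. Per the submitters' processing notes the tool was oligo (version not given). How background was corrected and arrays were normalized, and any scan batch, is not given in the sources used here. Groups and replicate numbers came from the labels, and the values were used as deposited.

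The change of each group mean from the day 0 mean of its genotype gave the 26 rows. The members, the lists and the tests were chosen with earlier results of these data known. Differences were fitted by linear models and empirical Bayes moderation (limma 3.58.1, R 4.3.3) over all 9 groups together, with 17 residual degrees of freedom. P-values were adjusted by Benjamini-Hochberg over all rows, with a threshold of 0.05, and the step was tested on simulated data. The number of arrays limits the precision.

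Rows given singly were the 5 with the deepest fall in both genotypes, those called at day 3, the 3 with the smallest day 3 difference, the 3 with the largest called difference between day 12 and day 3, those beside the limits, and the 5 outside rows most alike; others are said to be named after their values were seen. Gene names were to be used only if rows annotated to loci of cytosolic ribosomal proteins passed a check. The loci came from a list written from general knowledge. These rows were to lie above the 75th percentile of level and correlate by 0.2 more than other named rows, which they did not. Gene lists, cell type markers and sequences were therefore not used here. Alternatives were other scalings, filters, fits and arrays left out.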

Additional observations from a re-analysis of the deposited data

Results flagged for a closer look

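Of the 26 rows, 1 (3.85%) differed between the genotypes past the threshold in its change from light to day 3. This share was below the 10.2% called over all rows and the 24.3% over the other early falls. The difference in change shares the day 0 arrays with the choice of rows, so it is not independent of that choice. Row 13449288 had a mean level in light of 5.87 in pif5 and 6.15 in Col-0, and a day 3 difference of 0.47. Its difference in change, pif5 minus Col-0, was 0.76 by the interaction term (limma adjusted p = 0.012). In another, row 13388007, it was -0.57, and all 3 Col-0 day 3 arrays lay above the Col-0 mean in light while all 3 pif5 arrays lay below theirs. That row was picked for these opposite sides, and the interaction term for it did not pass the threshold (limma adjusted p = 0.067). No group held 4 or more arrays. Single arrays were therefore not checked for standing apart from their group beyond the nearest-group comparison and the fits with an array left out.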

How the results depend on the processing

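The day 3 comparison and the day 12 comparison kept the sign of their median over the 26 rows under all alternatives run, and no named row changed the sign of a called value. At day 3 the main fit called 3 of the 26 rows, all higher in pif5, and 4889 of all rows. After quantile normalization the count was 5 (5 higher), with 4876 of all rows. For the interaction term it was 1 (1 higher), with 2710 of all rows. With arrays centred on their medians, 1 row was called lower beside 3 higher, with 5009 of all rows. With a single day 3 array left out, 0 to 4 rows were called, 0 to 3 of them higher and 0 to 1 lower. Of all rows 3657 to 4644 were called in those fits. The median difference at day 12 was 0.64 with arrays centred on their medians. With a single array of day 3 or day 12 left out, 8 to 16 rows were called, 8 to 16 higher, their median difference was 0.52 to 0.65, and 1156 to 2728 of all rows were called. When day 12 was reduced to 1 array, that array was assumed to vary like the other groups. The causes of these moves were not tested. With an array of day 0, 1 or 6 left out, 22 to 30 rows met the rule, of which 19 to 26 were among the 26.

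With the replicate number as a block, 3 of the 26 rows were called at day 3 (5060 of all rows) and 14 at day 12 (2840 of all rows). Deviations of same-numbered arrays of the genotypes correlated at 0.02 to 0.08 on day 3, at -0.02 to 0.17 on day 0, 0.01 to 0.18 on day 1 and -0.01 to 0.06 on day 6. Those of different-numbered arrays correlated at -0.08 to 0.05 on day 3 and -0.15 to 0.15 on day 0. On day 1 they correlated at -0.14 to 0.03 and on day 6 at -0.07 to 0.04. Since not every same-numbered pair was over 0.1 on any day, the numbers were not taken to pair the samples. This cut-off does not settle whether the samples were paired. Since most 95% intervals at day 3 were wider than the median difference, the number of arrays limits what a single row can show.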
